A study of Bos taurus with 22 samples.

Results

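SMPD3 (ENSBTAG00000009639) and GFPT2 (ENSBTAG00000002215) are 2 of the 24616 genes counted by RNA-Seq in subcutaneous backfat of 22 beef steers. Both were chosen from the comparison of efficient with inefficient steers in these same animals: SMPD3 because the study listed it as differentially expressed (DE) in each of the 3 breeds, and GFPT2 because it was listed in Angus. Their levels in those contrasts are therefore given as a description, without a test. Tests cover what that listing did not use: GFPT2 in the other 2 breeds, differences between breeds, and differences between steers of 1 group. Both genes were chosen with earlier results of these data known, so these tests are not clearly free of the choice.

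RFIfat, residual feed intake with an adjustment for backfat, in kg, compares what a steer ate with the intake predicted for it. A low value (L-RFI) marks an efficient animal. Angus (ANG) had 4 H-RFI and 4 L-RFI steers, Charolais (CHAR) had 3 and 3, and Kinsella Composite (KC, a crossbred line labelled as Hereford x Angus) had 4 and 4. RFIfat was 0.75 to 1.64 kg in ANG H-RFI, -1.13 to -0.75 kg in ANG L-RFI, 0.69 to 1.10 kg in CHAR H-RFI and -1.03 to -0.96 kg in CHAR L-RFI steers. In KC it was 0.54 to 2.03 kg in H-RFI and -1.77 to -0.80 kg in L-RFI steers. Beyond the label, the paper gives the KC herd bulls of Angus, Charolais or Alberta Composite and a dam line of Hereford, Angus and Holstein. The steers carried no transgene, no treatment set the groups apart, no animals were pooled, and each library came from 1 steer. Per the paper, the steers were fed a finishing diet of barley grain, barley silage and a pellet supplement with Rumensin. Although the labels give adipocytes as the cell type, RNA was taken from whole fat tissue, so a smaller share of cells that express a gene cannot be told apart from less RNA of it per cell. Symbols were matched for 242 genes, all of them genes that the study listed as DE between RFI groups, and none of the 8 adipocyte markers was among them, so the tissue label was not checked against its defining genes.

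SMPD3 encodes neutral sphingomyelinase 2, a membrane enzyme that splits sphingomyelin into ceramide and phosphocholine and takes part in the release of exosomes. Ceramide is a signalling lipid that in adipose tissue has been linked to inflammation and insulin action. GFPT2 encodes a glutamine-fructose-6-phosphate transaminase, 1 of the paired isoenzymes that carry out the first and rate-limiting step of the hexosamine pathway, which turns a side stream of glucose into UDP-GlcNAc, the sugar donor for glycoproteins, O-GlcNAc modification and hyaluronan. Glucose transporters supply that pathway, and the hyaluronan synthases draw on its product.

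Between 8033008 and 12426133 reads per steer fell on genes. Levels are given as CPM, the reads on a gene scaled to a common library total. The library sizes were corrected by TMM, a scaling that assumes most genes do not differ between samples. At these depths 3 counts correspond to 0.241 to 0.373 CPM. Both genes were counted well above this in every steer, SMPD3 with 41 to 1710 reads and GFPT2 with 428 to 5901. In the RefSeq annotation SMPD3 overlaps the protein-coding gene PRMT7 and GFPT2 overlaps a lncRNA and a tRNA gene. The strand setting of the counting is not given in the sources used here. Reads in such overlaps may have been counted for SMPD3 or GFPT2, or left out as falling on more than 1 gene. Which of these holds is not known. The exact 95% Poisson interval of the lowest SMPD3 level, in CHAR L-RFI steer F47, was 3.20 to 6.05 CPM, and that of the highest, in CHAR H-RFI steer F48, was 178 to 196 CPM. These intervals cover counting error only, and they are far narrower than the differences between steers described next. In 6 steers of ANG and KC the share of uniquely aligned reads that fell on more than 1 gene was 0.303% to 0.512%, against 0.938% to 2.16% in the other 16. Across steers, none of 4 library measures (reads on genes, this ambiguous share, the share on genes and the share of reads not aligned uniquely) had a relation to SMPD3 or GFPT2 within groups that passed a permutation test, with r from -0.44 to 0.28 (smallest adjusted p = 0.801 over the 8 relations) and rho from -0.47 to 0.30 (smallest adjusted p = 0.675). Both lowest values were those of the share on genes against GFPT2 (unadjusted p = 0.157 for r and 0.0844 for rho), where r without the 2 steers farthest from the median share was -0.33.

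SMPD3 differed more between steers of the same group than nearly any other gene. Its level ran from 4.46 to 187 CPM over the 22 steers, a 41.9-fold range with a median of 16.6 CPM. The standard deviation between steers of 1 group, on the log2 scale, was 1.38, against a median of 0.25 over the 14048 genes tested, and 27 genes (0.192%) had a larger one. GFPT2 ran from 46.5 to 571 CPM, a 12.3-fold range with a median of 207 CPM. Its standard deviation within groups was 0.72, and 325 genes (2.31%) had a larger one. A gene was tested if at least 50% of the steers of 1 or more breeds had it above 1 CPM.

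In ANG H-RFI steers SMPD3 was at 21.2 CPM in F20, 6.66 in F21, 68.1 in F28 and 129 in F32. In ANG L-RFI steers it was at 10.3 CPM in F18, 17.0 in F23, 10.1 in F24 and 5.20 in F25. Thus 3 of 4 H-RFI steers stood above every L-RFI steer, while F21 lay within the L-RFI range. In CHAR H-RFI steers SMPD3 was at 4.61 CPM in F36, 28.9 in F43 and 187 in F48. In CHAR L-RFI steers it was at 8.27 CPM in F33, 9.73 in F46 and 4.46 in F47. The H-RFI steers of CHAR held the highest level of all 22 steers and also the second lowest, so these groups overlapped as well. In KC H-RFI steers SMPD3 was at 68.3 CPM in F1, 111 in F7, 36.4 in F8 and 16.3 in F9. In KC L-RFI steers it was at 12.9 CPM in F10, 25.6 in F11, 40.6 in F14 and 10.7 in F16. Here 2 of 4 H-RFI steers stood above every L-RFI steer, and F8 and F9 lay within the L-RFI range.

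GFPT2 followed a similar order of groups with a smaller spread. In ANG H-RFI steers it was at 271 CPM in F20, 164 in F21, 222 in F28 and 571 in F32. In ANG L-RFI steers it was at 97.9 CPM in F18, 166 in F23, 105 in F24 and 76.6 in F25. F21 and F23 lay next to each other, and the other steers of these groups were apart. In CHAR H-RFI steers GFPT2 was at 89.0 CPM in F36, 225 in F43 and 415 in F48. In CHAR L-RFI steers it was at 157 CPM in F33, 222 in F46 and 46.5 in F47. F36 was below 2 of the 3 L-RFI steers. In KC H-RFI steers GFPT2 was at 346 CPM in F1, 269 in F7, 255 in F8 and 308 in F9. In KC L-RFI steers it was at 192 CPM in F10, 172 in F11, 165 in F14 and 311 in F16. F16 stood among the H-RFI steers, and the other 3 were below all of them.

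**Figure D1:**
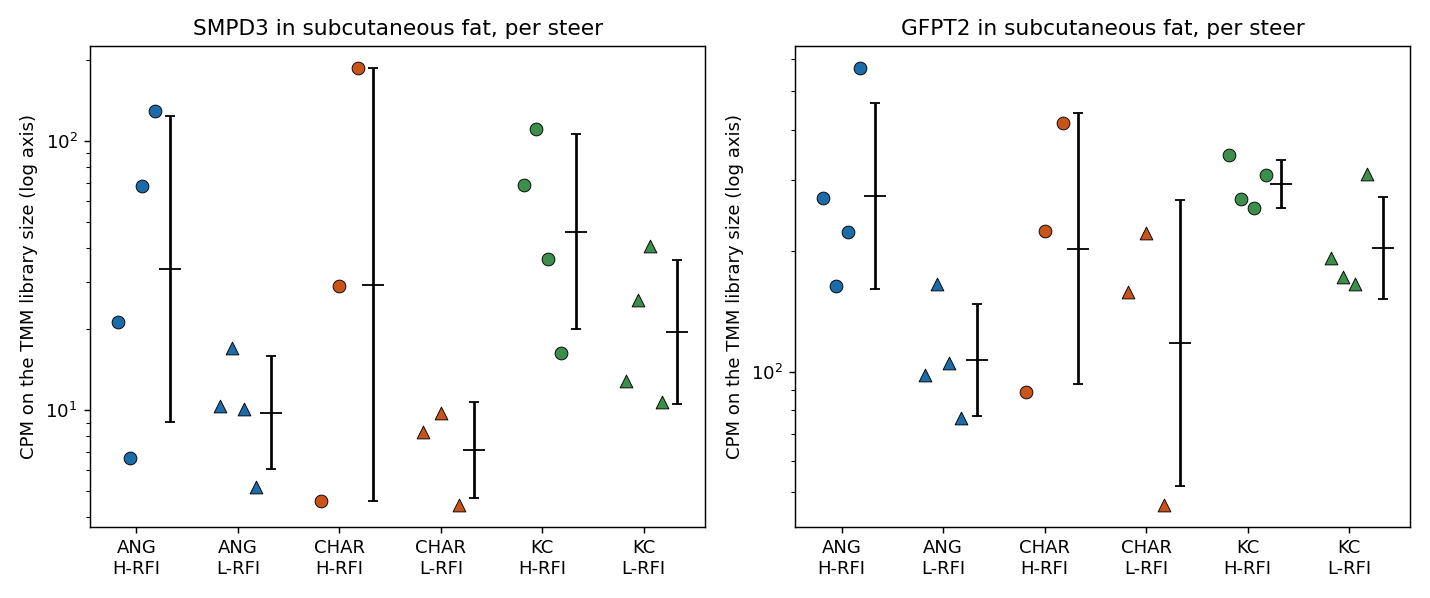
Level of SMPD3 (left) and GFPT2 (right) in each of the 22 steers by breed and RFI group, in CPM on the TMM library size on a log axis; each point is 1 steer, circles are H-RFI and triangles L-RFI, and the bars give the mean ± SD of the log2 level. In every breed the H-RFI and L-RFI ranges overlap for both genes, and CHAR H-RFI steers cover almost the whole range of SMPD3, from 4.61 to 187 CPM.

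By group median, SMPD3 was highest in KC H-RFI (52.4 CPM), followed by ANG H-RFI (44.7), CHAR H-RFI (28.9), KC L-RFI (19.2), ANG L-RFI (10.2) and CHAR L-RFI (8.27). GFPT2 medians were 289 CPM in KC H-RFI, 247 in ANG H-RFI, 225 in CHAR H-RFI, 182 in KC L-RFI, 157 in CHAR L-RFI and 101 in ANG L-RFI. For both genes each H-RFI median was above each L-RFI median, and for both the ranges of all neighbours in the order overlapped.

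Differences between RFI groups are given as log2FC of L-RFI against H-RFI from edgeR's quasi-likelihood fit. SMPD3 had a log2FC of -2.24 (SE 0.54) over the 22 steers with breed as a block. Fitted one breed at a time, the value was -3.27 (SE 1.13) for CHAR, -2.41 (SE 0.76) for ANG and -1.37 (SE 0.56) for KC. GFPT2 had a log2FC of -0.92 (SE 0.28) with breed as a block and -1.47 (SE 0.38) in ANG. These values belong to the contrasts on which the genes were chosen and carry no test. A gene was called at a Benjamini-Hochberg adjusted p (FDR) below 0.1 and an absolute log2FC of at least 1. In the fit with breed as a block 0 of 14048 genes (0%) were called by edgeR, 2105 genes had an unadjusted p below 0.05, and DESeq2 called 23. Without ANG H-RFI steer F28 edgeR called 34 genes, without CHAR H-RFI steers F43 or F36 it called 14 and 9, and without KC L-RFI steer F16 or ANG H-RFI steer F21 it called 2 and 1.

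The study listed GFPT2 in ANG, not in CHAR or KC. In those breeds the gene was lower in L-RFI steers by amounts that did not pass the test. GFPT2 was chosen with earlier results of these data known, so these tests are not clearly free of the choice. In CHAR its log2FC was -0.77 (SE 0.64, adjusted p = 0.971 in edgeR's quasi-likelihood test), with an exact permutation p of 0.4 where the smallest that 3 steers against 3 allow is 0.1. In KC its log2FC was -0.49 (SE 0.20, unadjusted p = 0.0337 and adjusted p = 0.235 in the same test), with an exact permutation p of 0.114 where the smallest possible is 0.0286. Over both breeds with breed as a block it was -0.61 (SE 0.32, unadjusted p = 0.0798 and adjusted p = 0.354 by edgeR), and the approximate 95% interval, -1.24 to 0.03, holds both no difference and a difference past the limit of 1. Of all genes tested, 0 of 13737 (0%) were called in CHAR, where 636 had an unadjusted p below 0.05, DESeq2 called 23 and edgeR's exact test called 39. Of 13725 genes tested in KC, 1 (0.00729%) was called with the quasi-likelihood fit of edgeR, while DESeq2 called 165 and edgeR's exact test 177. In the quasi-likelihood test 2504 of the KC genes (18.2%) had an unadjusted p below 0.05. Over CHAR and KC the quasi-likelihood test called 8 of 13985 (0.0572%), with 2391 (17.1%) at an unadjusted p below 0.05, and DESeq2 called 63. In CHAR the log2FC of GFPT2 turned on single steers in both directions: it was -0.14 without F48 and -0.35 without F47, but -1.25 without F46 and -1.17 without F36, with adjusted p of 0.932 to 0.999 over the 6 fits that left out 1 steer. In KC it ran from -0.38 (without F14) to -0.74 (without F16), and over CHAR and KC from -0.35 (without F48) to -0.77 (without F46), and none of these fits passed the limits.

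Neither gene differed between breeds beyond the spread of the steers. With RFI group in the model, SMPD3 in CHAR against ANG had a log2FC of 0.05 (SE 0.66, adjusted p = 0.982 by edgeR) and GFPT2 one of -0.02 (SE 0.35, adjusted p = 0.989). The approximate 95% intervals, -1.23 to 1.34 for SMPD3 and -0.70 to 0.66 for GFPT2, leave room for differences past the limit in SMPD3 but not in GFPT2. In KC against ANG the log2FC was 0.58 (SE 0.61, adjusted p = 0.621) for SMPD3 and 0.42 (SE 0.32, adjusted p = 0.486) for GFPT2. In KC against CHAR it was 0.53 (SE 0.67, adjusted p = 0.643) for SMPD3 and 0.43 (SE 0.35, adjusted p = 0.445) for GFPT2. Both estimates were above 0 in KC against either breed, and none passed the test. For GFPT2 the approximate 95% intervals were -0.22 to 1.05 in KC against ANG and -0.25 to 1.12 in KC against CHAR. For SMPD3 they were -0.62 to 1.785 and -0.78 to 1.84 in the same order. In KC both genes thus have room for differences past the limit. The SMPD3 estimates moved most with CHAR H-RFI steer F48, without which KC against CHAR was at 1.63 and CHAR against ANG at -1.14. Over the fits that left out 1 steer, KC against CHAR ran from 0.27 (without F14) to 1.63 with a smallest adjusted p of 0.105, and KC against ANG from 0.30 (without F14) to 0.96 (without F32). For GFPT2 these ranges were 0.25 to 0.66 and 0.27 to 0.69. Over all 14048 genes edgeR called 26 (0.185%) in CHAR against ANG, 57 (0.406%) in KC against ANG and 246 (1.75%) in KC against CHAR, and DESeq2 called 86, 80 and 282.

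Within a group, SMPD3 did not rise with RFIfat. Over all steers with breed as a block, a regression on RFIfat gave 0.78 log2 per kg (SE 0.29) for SMPD3 and 0.34 (SE 0.13) for GFPT2, but this slope carries the contrast between H-RFI and L-RFI on which the genes were chosen. Once each of the 6 groups had its own mean, the slope of SMPD3 was -1.30 log2 per kg (SE 0.67, unadjusted p = 0.0651 and adjusted p = 0.542 by edgeR), and that of GFPT2 was -0.31 (SE 0.41, adjusted p = 0.828). The sign was thus the opposite of that between groups, without passing the test. Without the 6 steers of low ambiguous share, chosen after seeing the data, the slope was -2.30 for SMPD3 and -0.39 for GFPT2. Over the fits that left out 1 steer it ran from -1.75 to -0.99 for SMPD3 and from -0.49 to -0.02 (without F32) for GFPT2. No gene was called on this slope (0 of 14048, 0%, at FDR below 0.1 by edgeR), although 1352 had an unadjusted p below 0.05 and DESeq2 called 49. In KC H-RFI steers, which spread most in RFIfat among the H-RFI groups, SMPD3 went down with each step up: 111 CPM at 0.54 kg, 68.3 at 0.94 kg, 36.4 at 1.62 kg and 16.3 at 2.03 kg. It also fell at each step in CHAR L-RFI, over the narrow span of -1.03 to -0.96 kg, but in no other group. In ANG H-RFI the highest SMPD3 level, 129 CPM, belonged to the steer of lowest RFIfat (0.75 kg). The next, 68.1 CPM, belonged to the steer of highest RFIfat (1.64 kg). In CHAR H-RFI SMPD3 was at 4.61 CPM at 0.69 kg, 187 at 0.72 kg and 28.9 at 1.10 kg. From lowest to highest RFIfat in KC L-RFI it was at 40.6, 12.9, 10.7 and 25.6 CPM. The slope was -1.57 (SE 0.94) in H-RFI steers alone and -0.60 (SE 0.67) in L-RFI steers alone, and the difference between these slopes, fitted as an interaction, was -0.96 (SE 1.49, adjusted p = 0.943 by edgeR).

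**Figure D2:**
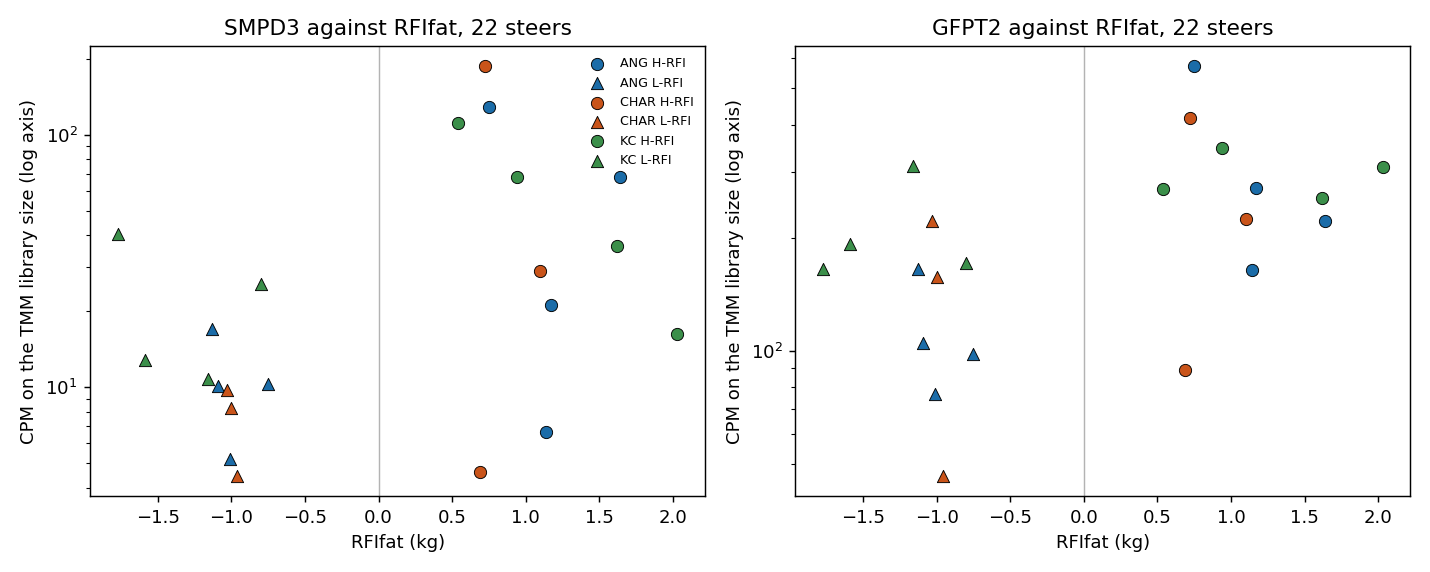
Level of SMPD3 (left) and GFPT2 (right) in CPM on the TMM library size (log axis) against RFIfat in kg for the 22 steers, with colours for breed, circles for H-RFI and triangles for L-RFI. The H-RFI steers lie to the right and mostly higher, while among the KC H-RFI steers SMPD3 goes from 111 CPM at 0.54 kg to 16.3 CPM at 2.03 kg. Most other groups show no steady fall: in CHAR H-RFI SMPD3 is at 4.61 CPM at 0.69 kg and 187 CPM at 0.72 kg.

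The same relations were computed as correlations of log2(CPM + 1) after subtracting group means, with permutation within groups (100000 resamples, 2-sided) and adjustment over 3 relations. Between RFIfat and SMPD3 Pearson's r was -0.33 (p = 0.170, adjusted p = 0.255) and Spearman's rho -0.37 (p = 0.152, adjusted p = 0.227), and without the 2 steers farthest in RFIfat, F7 and F9 of KC H-RFI, r was -0.14. Between RFIfat and GFPT2 r was -0.12 (permutation p = 0.483, adjusted p = 0.483) and rho -0.16 (p = 0.448, adjusted p = 0.448), with r of -0.20 without F7 and F9.

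SMPD3 and GFPT2 went together between steers of 1 group over the breeds as a whole, while the sign was negative in KC. Over the 22 steers r was 0.63 (permutation p = 0.0140, adjusted p = 0.0419) and rho 0.46 (p = 0.0732, adjusted p = 0.220). The 2 steers farthest out in SMPD3 were the CHAR H-RFI steers F36 and F48, which were lowest and highest in both genes in their group, and without them r was 0.44 (permutation p = 0.0808), so that the relation rests in part on this pair. By breed r was 0.81 in the 8 ANG steers (permutation p = 0.0444), 0.81 in the 6 CHAR steers (permutation p = 0.0276, close to the smallest this design allows) and -0.45 in the 8 KC steers (permutation p = 0.260). In KC the L-RFI steer with the most GFPT2, F16, had the least SMPD3 of its group, and F14, with the most SMPD3, had the least GFPT2. Whether the breeds differ in this relation was not tested. Without the 6 steers of low ambiguous share, an alternative chosen after seeing the data, r was 0.71.

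To find the genes that differed between steers as SMPD3 and GFPT2 did, the log2 level of each was entered in turn beside the 6 group means, and every other gene was tested for a slope (edgeR's quasi-likelihood test, called at FDR below 0.1). With SMPD3, 30 of 14047 genes (0.214%) rose and 4 (0.0285%) fell. With GFPT2, 108 (0.769%) rose and 18 (0.128%) fell. Of the 241 genes with a symbol, 6 (2.49%) rose and 1 (0.415%) fell with SMPD3, and 19 (7.88%) rose and 1 (0.415%) fell with GFPT2. These named genes are no sample of the whole, since the study listed them on the RFI contrast of the same steers, and their median slope was 0.09 on SMPD3 and 0.20 on GFPT2 against 0.00 for each over all genes. The called sets shared 6 genes, 17.6% of the SMPD3 set and 4.76% of the GFPT2 set, among them ASRGL1 and HAS1. With SMPD3 and GFPT2 both in the model neither was called: the slope of ASRGL1 was 0.44 on SMPD3 (adjusted p = 0.428) and 0.37 on GFPT2 (adjusted p = 0.586), and that of HAS1 0.58 (adjusted p = 0.745) and 0.91 (adjusted p = 0.596). GFPT2 itself had a slope of 0.33 (SE 0.09, adjusted p = 0.239) on SMPD3, and SMPD3 one of 1.31 (SE 0.39, adjusted p = 0.179) on GFPT2, so neither was called with the other. The counts turned on a few steers. Without CHAR H-RFI steer F36, 2 genes rose with SMPD3 and 22 with GFPT2, and without F48 2 and 19 did. Without ANG H-RFI steer F21 the counts were 7 and 55, and without KC L-RFI steer F16 they were 98 and 71. Without F32 of ANG H-RFI 15 genes rose with SMPD3, and without F11 of KC L-RFI 53 did.

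SLC2A1, the glucose transporter GLUT1, was the gene closest to SMPD3. Of 13605 genes with CPM above 1 in 50% or more of the 22 steers it had the highest r to SMPD3 within groups, 0.93, and r was 0.90 in ANG, 0.95 in CHAR and 0.95 in KC. Its slope on SMPD3 was 0.94 log2 per log2 (SE 0.08, adjusted p = 1.06e-05 by edgeR), an average over steers that single pairs depart from. SLC2A1 was at 28.1 CPM in F20, 22.9 in F21, 97.2 in F28 and 234 in F32 of ANG H-RFI, and at 15.2 in F18, 69.0 in F23, 18.1 in F24 and 15.1 in F25 of ANG L-RFI. In CHAR H-RFI it was at 8.89 CPM in F36, 28.9 in F43 and 272 in F48, and in CHAR L-RFI at 21.5 in F33, 12.6 in F46 and 15.4 in F47. In KC H-RFI it was at 87.2 CPM in F1, 107 in F7, 40.1 in F8 and 21.5 in F9, and in KC L-RFI at 7.36 in F10, 30.1 in F11, 34.1 in F14 and 11.3 in F16. In each breed the order of the H-RFI steers was that of SMPD3, and that of the L-RFI steers was not. In CHAR L-RFI steer F46 had the most SMPD3 and the least SLC2A1. F18 and F24 of ANG L-RFI changed places between the genes, as did F10 and F16 of KC L-RFI. By RFI class, the H-RFI steers had r of 0.97 and the L-RFI steers 0.77. The slope stayed called whichever single steer was removed (0.88 to 1.02), and also without F36 and F48 (0.90, adjusted p = 0.00359) and with GFPT2 beside SMPD3 in the model (0.96, adjusted p = 0.00116), the last 2 being alternatives chosen after seeing the data. On GFPT2 alone the slope of SLC2A1 was 1.17 (SE 0.38, adjusted p = 0.216).

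DUOX2 and DUOXA2 came next, with r to SMPD3 of 0.88 and 0.91. DUOX2 is a dual oxidase that makes hydrogen peroxide and DUOXA2 its maturation factor. They overlap each other in RefSeq, so their reads are uncertain in the same way, as are those of ASRGL1, which overlaps CSKMT. DUOXA2 had a slope of 1.31 (SE 0.15, adjusted p = 0.000376 by edgeR) and DUOX2 one of 1.24 (SE 0.18, adjusted p = 0.00568). DUOXA2 was highest in F48 of CHAR H-RFI (34.1 CPM), F1 of KC H-RFI (27.1 CPM) and F28 of ANG H-RFI (24.7 CPM). It was lowest in F36 of CHAR H-RFI, at 0.165 CPM from 2 reads, below the level of 3 counts. With GFPT2 in the model the slope of DUOXA2 on SMPD3 was 1.22 (adjusted p = 0.0351) and that of DUOX2 was 1.10 (adjusted p = 0.274).

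ASRGL1, an asparaginase-like enzyme that also cleaves isoaspartyl peptides, rose with SMPD3 with a slope of 0.57 (SE 0.08, adjusted p = 0.00568 by edgeR) and with GFPT2 with a slope of 0.94 (SE 0.22, adjusted p = 0.0655). UPP1, the uridine phosphorylase of pyrimidine salvage, rose with SMPD3 by 0.80 (SE 0.16, adjusted p = 0.0506). OTOGL, an otogelin-like protein, fell with SMPD3 by 0.53 per log2 (SE 0.10, adjusted p = 0.0349). Without F36 and F48 the adjusted p was 0.411 for ASRGL1, 0.322 for DUOX2, 0.846 for UPP1 and 0.663 for OTOGL, with slopes of 0.50, 1.12, 0.54 and -0.55, while DUOXA2 stayed called (slope 1.24, adjusted p = 0.0744). Leaving out F36 alone or F48 alone ended the call of these 4 genes too, and leaving out F21 or F32 that of OTOGL and UPP1, and F43 that of UPP1. Among the 10 named genes closest to SMPD3 were also ERRFI1 (r of 0.69), an inhibitor of EGF receptor signalling, ACTG2 (0.68), a smooth muscle actin, and CFB (0.68), complement factor B, none of which was called. FCRL5, an Fc receptor-like gene of B cells, and GNAT1, a transducin subunit, followed with r of 0.68 and 0.67. By RFI class some of these relations differed in size and others little, which was not tested. For UPP1 r was 0.87 among H-RFI but 0.09 among L-RFI steers. In the same order it was 0.76 and 0.09 for ERRFI1, 0.85 and -0.25 for GNAT1, and 0.79 and 0.35 for FCRL5. It was 0.93 and 0.75 for DUOXA2, 0.91 and 0.80 for DUOX2, and 0.86 and 0.64 for ASRGL1. For CFB it was 0.72 and 0.54, and for ACTG2 0.75 and 0.71. SMPD3 itself differed less between steers of the L-RFI groups (SD of log2 level 0.51 to 0.85) than of the H-RFI groups (1.17 to 2.53). On the other side were LOC540403 (r of -0.72), KIAA1755 (-0.63), ZDBF2 (-0.53) and SCN3A (-0.50).

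**Figure D3:**
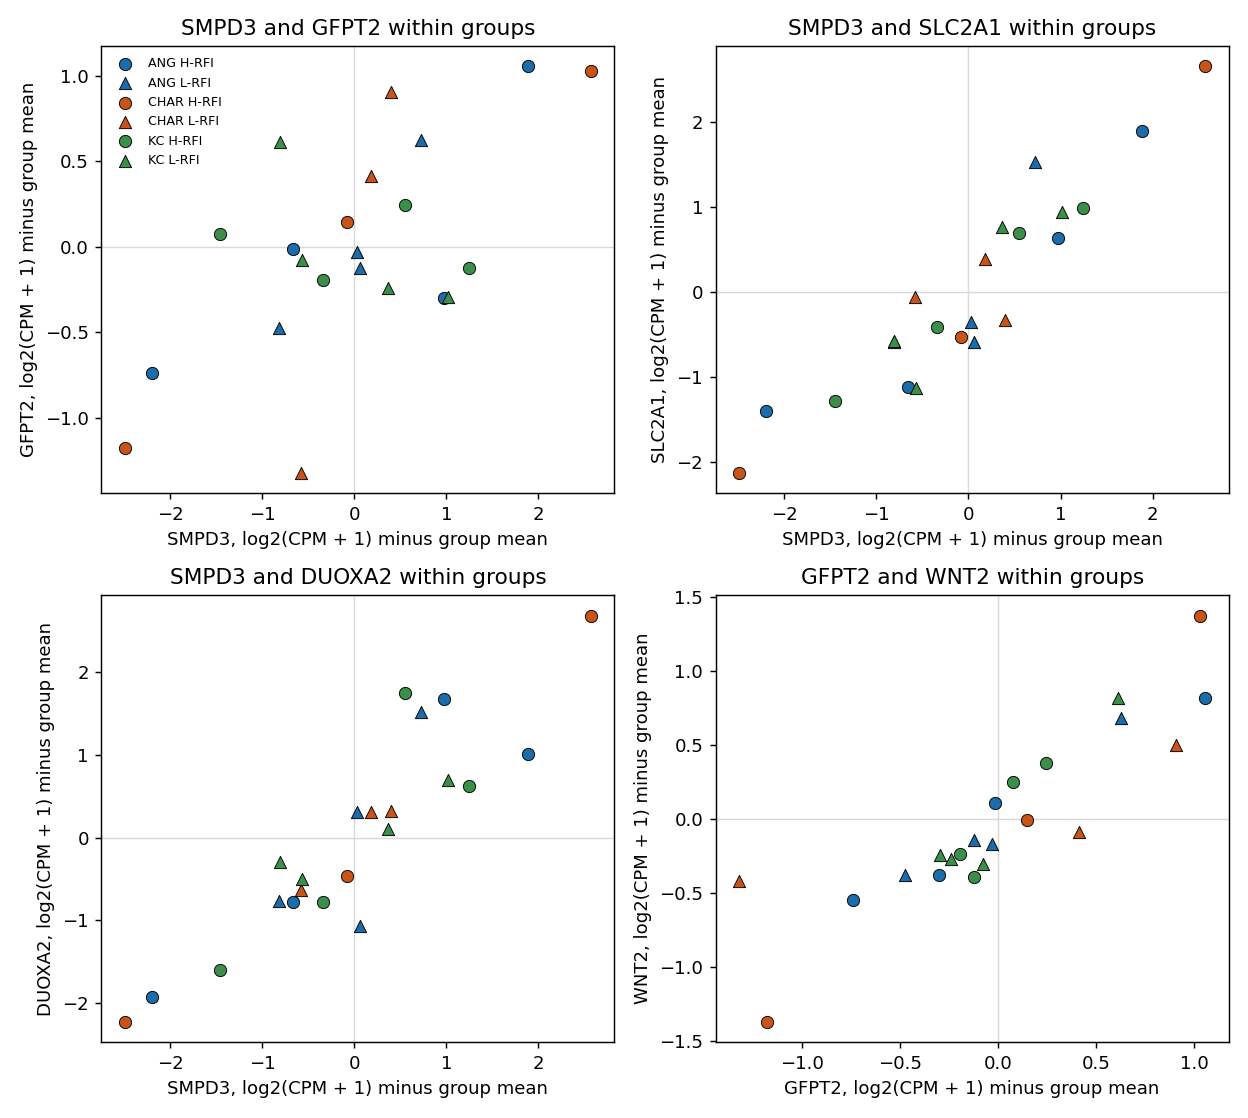
Log2(CPM + 1) minus the group mean for SMPD3 against GFPT2, SLC2A1 and DUOXA2 and for GFPT2 against WNT2, with 1 point per steer, colours for breed, circles for H-RFI and triangles for L-RFI. SLC2A1 stays close to SMPD3 in all breeds (r of 0.93), whereas GFPT2 goes with SMPD3 less closely (r of 0.63) and the green KC points show no rise.

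WNT2, a secreted Wnt ligand, had the highest r to GFPT2 of the named genes (0.89, second of 13605 genes) with values of 0.97 for ANG, 0.94 for KC and 0.85 for CHAR. Its slope on GFPT2 was 0.98 (SE 0.12, adjusted p = 0.000885 by edgeR) and 0.94 with SMPD3 in the model (adjusted p = 0.0350). WNT2 was at 27.5 CPM in F32, 19.5 in F48, the H-RFI steers of ANG and CHAR with the most GFPT2 of their groups, and lowest, at 2.06 CPM, in F36. In KC L-RFI it was at 15.1 CPM in F16 and 6.38 to 6.71 CPM in the other 3 steers, the same split as for GFPT2. Its slope on SMPD3 was 0.32 (SE 0.11, adjusted p = 0.314).

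The other named genes that rose with GFPT2 are given one by one and form no list that was tested. BMP7, a ligand of the BMP family, had a slope on GFPT2 of 0.91 (SE 0.18, adjusted p = 0.0270 by edgeR), ROR1, a Wnt receptor kinase, one of 0.71 (SE 0.13, adjusted p = 0.0213), and PTHLH, parathyroid hormone-like hormone, one of 1.10 (SE 0.25, adjusted p = 0.0646). GPRC5A, an orphan receptor, had a slope of 1.09 (SE 0.19, adjusted p = 0.0192) and TIAM1, an activator of RAC1, one of 0.64 (SE 0.12, adjusted p = 0.0209). ITGA5 and ITGA11, integrin subunits that bind fibronectin and collagen, had slopes of 0.68 and 0.62 (adjusted p = 0.0192 and 0.0323), COL4A5, a basement membrane collagen, one of 0.50 (adjusted p = 0.0300), SDC4, a syndecan, one of 0.68 (adjusted p = 0.0753) and HTRA3, a secreted protease, one of 0.72 (adjusted p = 0.0435).

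PSD3 and SYNJ2, which act in ARF6 and phosphoinositide turnover, had slopes of 0.50 and 0.67 (adjusted p = 0.0128 for each). SLC7A1, a transporter of cationic amino acids, KCNK5, a potassium channel, and AMPD3, an AMP deaminase, rose with slopes of 0.47, 1.07 and 0.74 (adjusted p = 0.0300, 0.0365 and 0.0753). KIAA1755 was the only named gene that fell, with a slope of -1.02 (SE 0.17, adjusted p = 0.0149), and it had the lowest r to GFPT2 of all 13605 genes, -0.84. Without the 2 steers farthest from the median in centred GFPT2, WNT2 (adjusted p = 0.000574), PSD3 (0.0108), SYNJ2 (0.0549) and ITGA5 (0.0549) stayed called by edgeR and the other 16 named genes did not. Their slopes were not all smaller: GPRC5A was at 1.23, ROR1 at 0.86, HAS1 at 2.01 and KIAA1755 at -1.25, while BMP7 was at 0.71. Leaving out F48 alone ended the call of 14 named genes, F36 alone that of 12 and F32 alone that of 7, while the calls of WNT2, PSD3, SYNJ2, GPRC5A and KIAA1755 held without any single steer. With SMPD3 in the model, also chosen after seeing the data, WNT2, BMP7 (slope 1.16, adjusted p = 0.0499), PSD3 (0.58, adjusted p = 0.0612) and PTHLH (1.47, adjusted p = 0.0612) stayed called and the other 16 named genes did not, among them SYNJ2 (0.59), GPRC5A (1.09) and KIAA1755 (-0.86), each with adjusted p = 0.190. Next in order among genes of negative r were LOC540403 (-0.61), CCRL2 (-0.58), OTOGL (-0.54) and SCN3A (-0.54). In the KC steers these 4 had positive r to GFPT2 (0.50, 0.23, 0.25 and 0.35), and KIAA1755 had one of -0.15.

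Few other genes of the pathways of SMPD3 and GFPT2 could be named. Of 50 sphingolipid genes in the lists SMPD3 alone had an identifier, and of 20 hexosamine genes GFPT2 and SLC2A1 had one. SMPD1, SMPD2, SMPD4, GFPT1 and HAS3 were not analysed here. Of 11 hyaluronan genes 3 were matched. HAS1, a hyaluronan synthase, rose with both, with a slope of 0.85 on SMPD3 (SE 0.19, adjusted p = 0.0987 by edgeR) and 1.72 on GFPT2 (SE 0.42, adjusted p = 0.0866), both near the limit: it stayed called in 7 of 22 fits that left out 1 steer with SMPD3 and in 9 of 22 with GFPT2. Its level was low, 0.0938 to 8.44 CPM, and it stood highest in F7 of KC H-RFI (8.44 CPM), F32 of ANG H-RFI (8.33 CPM) and F48 of CHAR H-RFI (6.88 CPM), each the steer with the most SMPD3 in its group. TNFAIP6, a secreted protein that binds hyaluronan, rose with GFPT2 with a slope of 1.24 (SE 0.25, adjusted p = 0.0300), and its slope on SMPD3 was 0.50 (SE 0.15, adjusted p = 0.276). HAS2, the other hyaluronan synthase measured, had slopes of 0.18 on SMPD3 (SE 0.10, adjusted p = 0.667) and 0.54 on GFPT2 (SE 0.16, adjusted p = 0.179). The 3 matched hyaluronan genes are too few, and were listed by the study on the RFI contrast, for their calls (1 with SMPD3, 2 with GFPT2) to be read against the shares of all genes that rose (0.214% and 0.769%) or of genes with a symbol (2.49% and 7.88%).

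**Figure D4:**
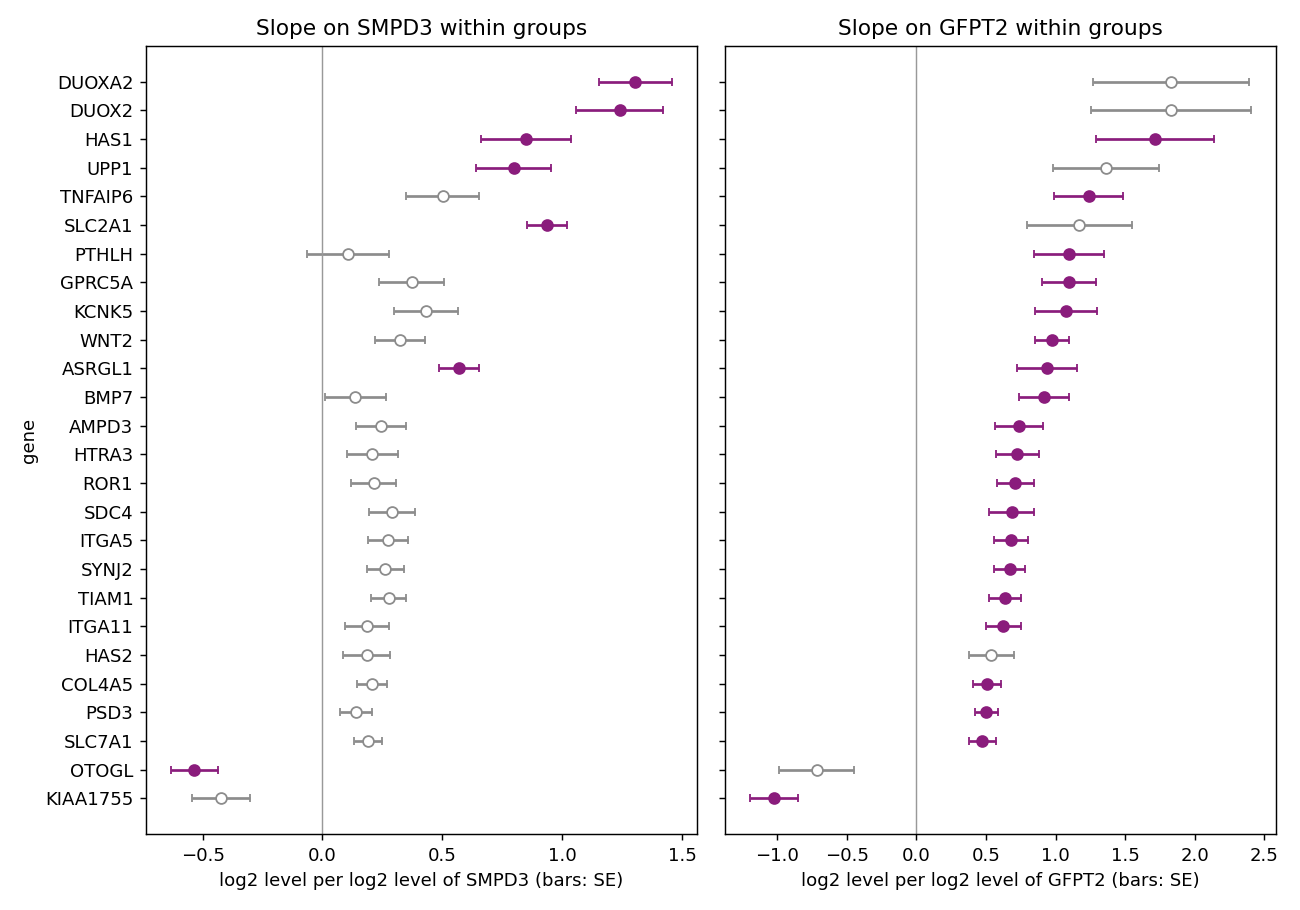
Slope of 26 named genes on the log2 level of SMPD3 (left) and of GFPT2 (right) within groups, in log2 per log2, with bars for the SE; filled points were called at FDR below 0.1 by edgeR and open points were not. ASRGL1 and HAS1 are the only genes filled on both sides, and neither was called on either side with the other gene in the model.

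CXCL8, the matched member of 12 inflammation genes, had slopes of 0.07 on SMPD3 (SE 0.15) and 0.01 on GFPT2 (SE 0.27). Of 80 markers of cell types that fat tissue can hold, values are given for 6, PI16 (fibroblast progenitors), HDC (mast cells), ACTA2 (smooth muscle), NEB and TTN (skeletal muscle) and PRX (Schwann cells), and 0 of these 6 were called with SMPD3 or GFPT2 by edgeR. At an unadjusted p below 0.05, ACTA2 and HDC passed with SMPD3 and ACTA2 with GFPT2, against 8.02% and 11.2% of all genes tested (0.214% rose and 0.0285% fell at FDR below 0.1 with SMPD3, 0.769% and 0.128% with GFPT2). The smallest adjusted p among them was that of ACTA2, 0.307 with SMPD3 (slope 0.21, SE 0.07) and 0.155 with GFPT2 (slope 0.43, SE 0.12). A part of other cell types in the differences between steers was not tested.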

How the data were processed

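RNA-Seq counts of subcutaneous backfat were used for 22 steers in 6 groups, taken from the labels. Per the labels and the paper's methods, total RNA was depleted of rRNA and made into stranded libraries for 100 bp paired-end sequencing. The authors used fastq-mcf for trimming (minimum quality 20, minimum length 75 bp), TopHat2 2.0.9 for alignment to UMD3.1 and SAMtools 1.1, and they deposited raw counts per gene from HTSeq 0.6.1. The strand setting of the counting is not given in the sources used here. The 5 summary lines were kept out of library sizes, whose totals were 8033008 to 12426133, and 34.3% to 42.5% of the uniquely aligned reads of a steer were assigned to genes. Alignments that were not unique made up 28.9% to 38.8% of unique and non-unique alignments together. The members and gene lists were chosen with earlier results of these data known.

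Genes above 1 CPM in no fewer than 50% of a breed's animals, in 1 or more breeds, were tested with edgeR 4.0.16 (R 4.3.3, limma 3.58.1, quasi-likelihood, TMM, Benjamini-Hochberg over all genes tested), after the scripts were tested on simulated data. Levels entered as regressors or correlated were log2(CPM + 1). Single genes within a breed were also tested by a 2-sided exact permutation. Steers within a group are separate animals. Per the paper, its full herds were born in different years and had fewer known sires than steers. Neither birth year nor sire was in a model here. Named genes were SMPD3, GFPT2, their relatives, the hyaluronan synthases, the 10 highest and 5 lowest r to each among genes with a symbol, and list members called, up to 4 per list; other called genes with a symbol were named after their values were seen. Symbols came from the study's supplementary gene table (242 identifiers, all in the count table). RefSeq (ARS-UCD2.0) served only to see which genes overlap, so no coordinates or sequences are given. Some genes are not reported by name.

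Alternatives were RLE factors, DESeq2 1.42.0, edgeR's exact test, other filters and pseudocounts, subsets of steers, other models and leaving out each steer. The rest was computed in Python 3.11.15 (scipy 1.17.1, pandas 2.3.3, numpy 2.4.6; plots in matplotlib 3.10.9).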

Additional observations from a re-analysis of the deposited data

Results flagged for a closer look

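SLC2A1 was at 69.0 CPM in ANG L-RFI steer F23, far from the other 3 steers of its group, of which the nearest was at 18.1 CPM. The gap took up a share of 0.946 of the range of the group, above Dixon's 95% limit for 4 steers. Among 12 groups examined for SMPD3, GFPT2 and SLC2A1 this was the only one past the limit, and chance alone passes about 1 in 20. F23 was also the highest of its group in SMPD3 (17.0 CPM), GFPT2 (166 CPM) and DUOXA2 (8.27 CPM).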

How the results depend on the processing

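No paired analysis was possible because every steer has a number of its own and the groups share none. The cause of the changes below was not tested. DESeq2 called 2 genes higher and 21 lower in L-RFI steers with breed as a block, 143 rising and 41 falling with SMPD3, and 274 rising and 80 falling with GFPT2. RFIfat as regressor with breed as block gave 0.78 for SMPD3 and 0.34 for GFPT2 (log2 per kg, another unit than the log2FC). In CHAR against ANG the 6-group model gave -0.061 for SMPD3 and 0.0078 for GFPT2, and SMPD3 was at -0.041 without the 6 steers of low ambiguous share. Without those 6 steers 16 genes rose and 1 fell with SMPD3, and 48 rose and 11 fell with GFPT2. With the other gene in the model 2 rose and 0 fell with SMPD3, and 12 rose and 3 fell with GFPT2. Without the 2 steers farthest from the median 2 rose and 1 fell with SMPD3, 11 rose and 1 fell with GFPT2, and r of the pair was 0.44. With CPM above 1 in every steer 2 genes fell with SMPD3. In KC alone r of the pair was -0.45. The fits without the 6 steers, with the other gene in the model, and without the 2 farthest steers (for the gene counts) were chosen after seeing the data. Among all alternative fits of the named slopes, 636 kept direction and call and 139 kept the direction only.

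Leaving out each steer in turn gave 0 to 5 genes higher and 0 to 29 lower in L-RFI steers, 2 to 98 rising and 0 to 11 falling with SMPD3, and 19 to 127 rising and 2 to 26 falling with GFPT2. SMPD3 in CHAR against ANG ran from -1.14 (without F48) to 0.50 (without F32), and GFPT2 from -0.25 to 0.26 (the same steers). GFPT2 between RFI groups kept its direction and missed the limits in CHAR, KC and both under all alternatives run, as did both slopes on RFIfat. Which limits the missing calls, depth or the number of steers, was not tested.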
